A study of Mus musculus with 12 samples.

Results

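The 7 interferon regulatory factor genes Irf1, Irf2, Irf3, Irf4, Irf5, Irf7 and Irf8 were followed in mouse fetal liver alveolar-like macrophages (FLAMs), and were taken by symbol from a table of 40847 genes. All 7 passed the filter on low counts, which left 14749 genes for testing. FLAMs are macrophages grown from fetal liver cells in the growth factor GM-CSF. All cells received 30 ng/ml recombinant mouse GM-CSF, the untreated cells included. The 12 libraries formed 4 groups of 3: untreated, TGFβ (20 ng/ml recombinant human TGFβ1 in the medium), Pam3 (25 ng/ml Pam3CSK4, a synthetic lipopeptide that activates TLR2, for 18 h), and Pam3+TGFβ (both agents at these doses). The time of culture with TGFβ, the mouse strain, and whether the libraries of a group came from separate animals or cultures are not given in the sources used here, so p-values measure the spread between these libraries, which may be technical.

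Interferon regulatory factors (IRFs) share an amino-terminal DNA-binding domain that recognizes GAAA-containing elements in the promoters of interferons and interferon-stimulated genes. Irf3 and Irf7 are phosphorylated by the kinases TBK1 and IKKε, then dimerize, enter the nucleus and switch on type I interferon genes. Irf3 is made constitutively, while Irf7 is itself interferon-stimulated and amplifies the response. Irf5 acts on inflammatory cytokine genes below the adaptor MyD88, Irf1 activates many interferon-γ and antigen presentation genes, and Irf2 binds the same elements as Irf1 and often opposes it. Irf4 and Irf8 bind DNA weakly alone and pair with the macrophage factor PU.1 on composite elements. The libraries report mRNA, not phosphorylation or protein.

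Library totals ran from 34036650 to 44374115 counts. In 5 libraries (untreated replicate 3, TGFβ replicates 1 and 3, Pam3 replicates 2 and 3), the 3 rows LOC118568312, AY036118 and Mir6236 together took 4.09% to 7.15% of all counts, against 0.113% to 1.38% in the other 7. No Pam3+TGFβ library was among these 5. Results were therefore also computed in the other 7 libraries alone, and are given where a member's call was lost. That set leaves TGFβ (replicate 2) and Pam3 (replicate 1) with 1 library each. CPM is the usual count rate of a gene, here with library sizes scaled by the trimmed mean of M values (TMM). All 10 macrophage markers checked were above 1 CPM in every group, and their summed level was 32995 to 37761 CPM in untreated, 17361 to 18283 in TGFβ, 36962 to 38243 in Pam3 and 26516 to 27223 in Pam3+TGFβ libraries. Lyz2 made up most of that sum, with a mean of 29824 CPM in untreated and 15248 in TGFβ cells. Single markers went both ways between these groups, with Siglecf at 32.1 and 300.4 CPM and Pparg at 117 and 225, but Marco at 2147 and 123, Itgax at 335 and 168 and Adgre1 at 303 and 145. Dendritic cells also use Irf4 and Irf8. Their 7 markers summed to 16.8 to 25.1 CPM over the 12 libraries, and 2 of the 7, Clec9a and Zbtb46, reached a mean of 1 CPM in a group, while the defining receptor gene Flt3 was at or near 0. Zbtb46 averaged 4.64 CPM in untreated, 1.42 in TGFβ, 4.11 in Pam3 and 1.55 in Pam3+TGFβ cells. B cell and T cell markers summed to at most 0.419 CPM in a library. The neutrophil list summed to 13.1 to 15.5 CPM in untreated and 3.27 to 5.16 in TGFβ libraries. S100a8, its most abundant gene, averaged 13.8 and 3.07 CPM there, while S100a9 averaged 0.253 and 0.993. The epithelial list summed to 159 to 182 CPM in untreated and 391 to 403 in TGFβ libraries. It was nearly all Cdh1, with Krt18 at 0 in every group. The part of these shifts in the results below was not tested. In bulk RNA, fewer cells that make a transcript and less transcript per cell cannot be told apart.

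The 7 genes lie on 5 mouse chromosomes in GRCm39, annotated by GENCODE M39. Irf7 is the compact gene of chr7:140842619-140846398, on the minus strand, with 10 exons, and Irf3 lies far from it at chr7:44647033-44652272, on the plus strand, with 8 exons. Irf1 (chr11:53660812-53669200, 10 exons), Irf2 (chr8:47192222-47300501, 9 exons), Irf4 (chr13:30933209-30950959, 9 exons), Irf5 (chr6:29526276-29541870, 9 exons) and Irf8 (chr8:121463096-121485659, 9 exons) are on the plus strand. The promoter windows of 300 bases (250 before to 50 from the start of the canonical transcript) were searched on both strands for 5 motifs of factors that act in interferon and TGFβ signaling. The letters GAAANNGAAA (interferon-stimulated response element, ISRE) were in 1 of the 7 windows and in 3.84% of 21757 protein-coding promoters. TTCNNNGAA (gamma-activated site, GAS, a STAT motif) was in 3 of the 7 windows and 8.82% of all promoters. GGGNNTTTCC (κB) was in 1 of 7 and 1.76%, CAGACA (SMAD) in 2 of 7 and 18.9%, and GGAANNGAAA (ETS and IRF composite element, EICE) in 1 of 7 and 2.97%. The following windows are shown because they hold the GAS, ISRE, EICE and κB matches of the members that moved with Pam3, TGFβ or both, with those matches in capitals, 5′ to 3′ on the gene's strand (GRCm39).

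Irf1 promoter, chr11:53660591-53660890, plus strand: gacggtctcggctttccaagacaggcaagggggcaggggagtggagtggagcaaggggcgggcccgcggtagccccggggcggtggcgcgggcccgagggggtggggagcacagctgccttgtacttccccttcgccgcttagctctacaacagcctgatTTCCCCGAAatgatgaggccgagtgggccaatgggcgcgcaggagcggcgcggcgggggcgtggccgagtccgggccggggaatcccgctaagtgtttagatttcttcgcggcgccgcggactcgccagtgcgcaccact

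Irf2 promoter, chr8:47192510-47192809, plus strand: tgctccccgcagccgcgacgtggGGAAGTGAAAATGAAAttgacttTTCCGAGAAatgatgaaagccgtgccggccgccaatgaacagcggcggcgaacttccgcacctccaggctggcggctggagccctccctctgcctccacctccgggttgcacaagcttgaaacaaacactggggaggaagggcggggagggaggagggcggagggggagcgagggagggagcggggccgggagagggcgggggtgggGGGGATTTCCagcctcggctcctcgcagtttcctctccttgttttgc

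Irf8 promoter window around its pair of GAS matches, chr8:121462901-121462959, plus strand, with the match at -171 in capitals: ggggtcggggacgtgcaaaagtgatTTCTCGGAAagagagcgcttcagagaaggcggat

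The Irf1 window held a GAS match at positions -90 to -82 from the start of transcription. In the Irf2 window an EICE match at -227 to -218 overlapped an ISRE match at -221 to -212, a GAS match followed at -204 to -196, and a κB match lay at 4 to 13. Irf8 held GAS matches at -171 to -163 and -153 to -145. The SMAD letters were at -185 to -180 in Irf4 and -87 to -82 in Irf5, both on the reverse strand. The Irf3 and Irf7 windows held none of the 5 motifs, which says only that these letters are not in those 300 bases. Within 1000 bases on either side of the start, Irf7 was the only member besides Irf2 with ISRE letters, which 22.7% of such windows hold. Its match nearest the start lay 377 bases into the gene, in intron 1, and another, GAAACTGAAA, in exon 2 at chr7:140845748-140845757. The same wider search added GAS letters at -862 for Irf3 and -585 for Irf5, which 45.2% of such windows hold. A match is a description of letters and not a measured binding site.

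Irf7 intron 1, chr7:140845988-140846047, minus strand, ISRE letters in capitals as read on the gene's strand: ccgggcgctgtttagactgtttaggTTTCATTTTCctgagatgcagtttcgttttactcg

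Irf7, the amplifier of type I interferon, was the member that Pam3 moved most, and its rise was much larger in cells kept with TGFβ. Untreated libraries held 5.47, 9.36 and 5.90 CPM and TGFβ libraries 4.93, 6.84 and 4.82, which is 178 to 389 counts per library. Pam3 libraries held 57.0, 48.4 and 45.9 CPM, and Pam3+TGFβ libraries 218, 221 and 220.4. The untreated and TGFβ libraries overlapped, every Pam3 library lay above them, and every Pam3+TGFβ library lay above every Pam3 library. Pam3 raised Irf7 by 7.26-fold without TGFβ, which is 2.86 ± 0.198 (SE, adjusted p = 6.75e-06) on the log2 scale. With TGFβ it raised Irf7 by 39.6-fold, or 5.31 ± 0.211 (SE, adjusted p = 2.66e-08). The difference of these responses, tested as an interaction, was 2.45 ± 0.28 (SE, adjusted p = 0.000256) on the log2 scale. TGFβ alone gave a log2 change of -0.33 ± 0.223 (SE, adjusted p = 0.261), a difference that did not pass the test, with a 95% interval of -0.83 to 0.18. That comparison leaned on untreated replicate 2, which held the most Irf7 of its group: without it the value was -0.03, and without TGFβ replicate 2 it was -0.49, neither called. In the 7 libraries low in the 3 rows above, the interaction was 2.08 (adjusted p = 0.027). Irf7 shares 63 exon bases with Phrf1 on the opposite strand, and Phrf1 averaged 80.3 to 95.6 CPM in the 4 groups. With no strand setting stated, reads from such overlaps cannot be told apart, here and for the overlaps given below.

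**Figure D1:**
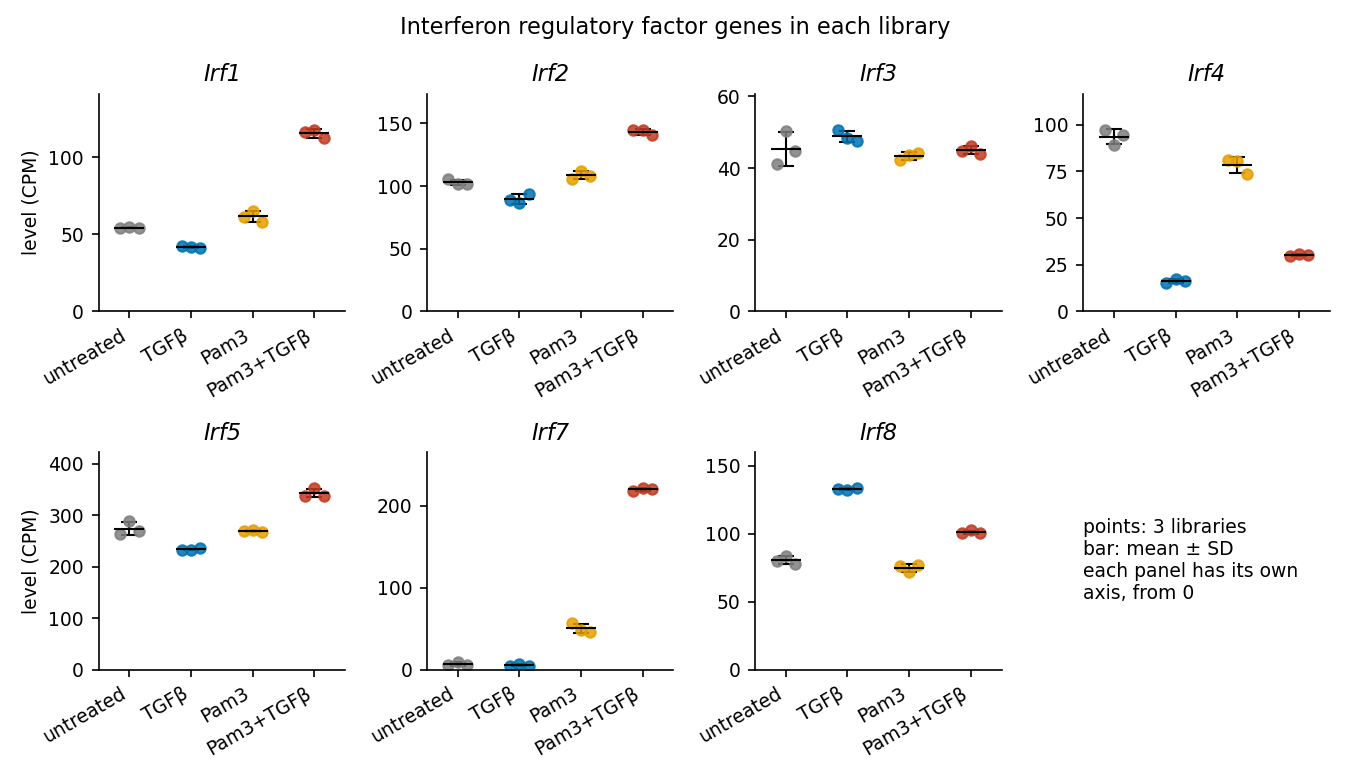
Level of each of the 7 interferon regulatory factor genes (CPM, linear axis from 0, each panel with its own axis) in every library of the 4 groups, with the mean and SD of 3 libraries as bars. Irf7 lies at or below 9.36 CPM without Pam3 and at or above 218 CPM in the 3 Pam3+TGFβ libraries, Irf4 is at or below 17.2 CPM with TGFβ alone, and the Irf3 groups lie close together.

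Irf3, the constitutive partner of Irf7 in interferon induction, did not pass the test in any of the 4 single-agent comparisons or in the interaction. Its libraries held 41.1, 50.4 and 44.7 CPM untreated, 50.7, 48.3 and 47.6 with TGFβ, 42.3, 43.6 and 44.2 with Pam3 and 44.7, 46.3 and 44.0 with both. The untreated group had the widest spread and overlapped the other 3 groups. The interaction was -0.05 on the log2 scale with a 95% interval of -0.25 to 0.14 (adjusted p = 0.789), and the other log2 differences were -0.07 (Pam3 alone), -0.12 (Pam3 with TGFβ), 0.11 (TGFβ alone) and 0.05 (TGFβ with Pam3). Only Pam3 alone against TGFβ alone passed, -0.17 ± 0.067 (SE, adjusted p = 0.0322), and that call was lost without TGFβ replicate 1, Pam3 replicate 1 or Pam3 replicate 2 (log2 changes from -0.18 to -0.15, adjusted p from 0.067 to 0.109) and in the 7 libraries low in the 3 rows (-0.20, adjusted p = 0.281), with the value about as large. Without untreated replicate 2, TGFβ alone gave 0.19 and was called (adjusted p = 0.0135), and with upper-quartile scaling the response to Pam3 with TGFβ was -0.18 (adjusted p = 0.0347). Irf3 shares 123 exon bases with Bcl2l12 and 22 with Scaf1, both on the opposite strand. Expressed per kb of the canonical transcript, Irf7 was below Irf3 in cells without Pam3 and above it with both agents. The Irf7 to Irf3 ratio was 0.115, 0.160 and 0.114 in untreated, 0.0839, 0.122 and 0.0874 in TGFβ, 1.16, 0.959 and 0.896 in Pam3 and 4.22, 4.13 and 4.32 in Pam3+TGFβ libraries. The Pam3 group straddled 1, and the groups with and without Pam3 did not overlap. Per kb of all annotated exons the group means were 0.138, 0.104, 1.07 and 4.50.

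Irf1 and Irf2, the activator and its frequent antagonist, rose together when Pam3 was given with TGFβ. Irf1 held 54.1, 54.4 and 54.1 CPM in untreated, 42.5, 41.5 and 41.3 in TGFβ, 61.3, 65.3 and 58.2 in Pam3 and 116, 118 and 112 in Pam3+TGFβ libraries. The 4 groups did not overlap, and the order from TGFβ, the lowest, through untreated and Pam3 to Pam3+TGFβ was called at every step. Pam3 raised Irf1 by 2.76-fold with TGFβ, or 1.47 ± 0.056 (SE, adjusted p = 5.41e-17) on the log2 scale. Without TGFβ the log2 change was 0.19 ± 0.055 (SE, adjusted p = 0.0185), and this call was lost without Pam3 replicate 2 (0.14, adjusted p = 0.134) and in the 7 libraries low in the 3 rows (0.17, adjusted p = 0.289). The interaction was 1.28 ± 0.078 (SE, adjusted p = 5.9e-12). TGFβ alone lowered Irf1, with a log2 change of -0.37 ± 0.056 (SE, adjusted p = 3.29e-06). In the presence of Pam3 it raised Irf1 by 0.91 ± 0.055 (SE, adjusted p = 3.81e-13).

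For Irf2, the libraries held 105, 101 and 102 CPM untreated, 89.1, 86.1 and 93.5 with TGFβ, 106, 112 and 108 with Pam3 and 144, 145 and 141 with both agents. TGFβ libraries were the lowest and Pam3+TGFβ libraries the highest, with no overlap with another group. Untreated and Pam3 libraries did not overlap either, but their difference of 0.08 did not pass the test (95% interval -0.02 to 0.18, adjusted p = 0.308). With TGFβ, Pam3 raised Irf2 by 0.68 ± 0.048 (SE, adjusted p = 1.34e-11), and the interaction was 0.60 ± 0.068 (SE, adjusted p = 3.04e-07). TGFβ alone lowered Irf2, -0.20 ± 0.048 (SE, adjusted p = 0.00116). With Pam3 present TGFβ raised it, 0.40 ± 0.048 (SE, adjusted p = 1.37e-07). The Irf1 to Irf2 ratio per kb of transcript was 0.619 ± 0.0138 (SD, n = 3) in untreated, 0.549 ± 0.0259 in TGFβ, 0.667 ± 0.0308 in Pam3 and 0.948 ± 0.00762 in Pam3+TGFβ libraries, and the Pam3+TGFβ libraries lay above the other 9. Per kb of all annotated exons it was 1.26, 1.12, 1.36 and 1.93, so which of the pair is higher depends on the length used. Irf1 and Irf2 overlap antisense lncRNA genes, of which Gm12216 was at most 0.22 CPM and Gm16675 at most 2.20 CPM on average in a group. The largest antisense overlap of Irf1 is with Gm17334 (1467 exon bases) and another is with Gm74496 (405), for neither of which a level is given here.

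Irf5, which drives inflammatory cytokine genes, likewise had its lowest level with TGFβ and its highest with both agents. Untreated libraries held 264, 289 and 269 CPM, TGFβ libraries 233, 232 and 236, Pam3 libraries 269, 272 and 267 and Pam3+TGFβ libraries 338, 352 and 338. The TGFβ libraries lay lowest and the Pam3+TGFβ libraries highest, without overlap, and the Pam3 libraries fell within the untreated range. Pam3 alone gave -0.03 on the log2 scale (95% interval -0.11 to 0.06, adjusted p = 0.759), and Pam3 with TGFβ gave 0.56 ± 0.041 (SE, adjusted p = 2.82e-11), which is 1.47-fold. The interaction was 0.58 ± 0.058 (SE, adjusted p = 3.6e-08). TGFβ alone lowered Irf5, -0.23 ± 0.041 (SE, adjusted p = 3.64e-05), and TGFβ in the presence of Pam3 raised it by 0.35 ± 0.041 (SE, adjusted p = 9.69e-08). Irf5 shares 416 exon bases with Tnpo3 on the opposite strand, whose group means ran from 88.5 to 95.4 CPM.

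Irf4 and Irf8, the PU.1 partners, moved in opposite directions with TGFβ, and in TGFβ cells Pam3 moved each part of the way back. Irf4 held 97.4, 89.5 and 94.4 CPM in untreated libraries and 15.2, 17.2 and 16.4 in TGFβ libraries, a log2 change of -2.53 ± 0.065 (SE, adjusted p = 1e-20) that left 5.76-fold less. Irf8 held 80.1, 83.6 and 78.0 CPM in untreated libraries and 133, 132 and 133 in TGFβ libraries, a rise of 0.72 ± 0.05 (SE, adjusted p = 4.07e-12) on the log2 scale. Irf4 is linked to alternative macrophage activation, and Irf8 to the development of the monocyte and dendritic lineages.

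With Pam3 added to TGFβ, Irf4 rose to 29.8, 30.5 and 30.4 CPM, a log2 change of 0.89 ± 0.065 (SE, adjusted p = 2.03e-11), or 1.86-fold. Irf8 fell to 100.4, 102 and 101 CPM, a log2 change of -0.39 ± 0.049 (SE, adjusted p = 4.08e-07). Neither returned to its untreated level: against untreated cells, Irf4 in Pam3+TGFβ cells stayed lower, -1.63 ± 0.062 (SE, adjusted p = 2.44e-17), and Irf8 stayed higher, 0.33 ± 0.05 (SE, adjusted p = 3.61e-06). In cells without TGFβ, Pam3 libraries held 81.4, 80.8 and 73.8 CPM of Irf4, all below the untreated libraries, a change of -0.25 ± 0.06 (SE, adjusted p = 0.00346) that was lost in the 7 libraries low in the 3 rows (-0.20, adjusted p = 0.247). They held 76.4, 71.8 and 77.1 CPM of Irf8, below the untreated libraries without overlap, but the difference of -0.10 did not pass the test (95% interval -0.20 to 0.00, adjusted p = 0.179). The interaction was 1.15 ± 0.088 (SE, adjusted p = 3.89e-10) for Irf4. It was -0.29 ± 0.07 (SE, adjusted p = 0.00447) for Irf8, which was lost in those 7 libraries (-0.27, adjusted p = 0.228). In the presence of Pam3, TGFβ lowered Irf4, -1.38 ± 0.062 (SE, adjusted p = 1.15e-15), and raised Irf8, 0.43 ± 0.05 (SE, adjusted p = 7.01e-08).

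The order of Irf4 and Irf8 per kb of transcript turned with TGFβ and not with Pam3. The Irf8 to Irf4 ratio was 0.772, 0.877 and 0.776 in untreated and 0.881, 0.834 and 0.982 in Pam3 libraries, all under 1. It was 8.19, 7.22 and 7.64 in TGFβ and 3.16, 3.15 and 3.12 in Pam3+TGFβ libraries. Measured per kb of all annotated exons instead of the canonical transcript, the group means were 0.434, 0.483, 4.13 and 1.69 in the same order of groups, on the same side of 1.

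**Figure D2:**
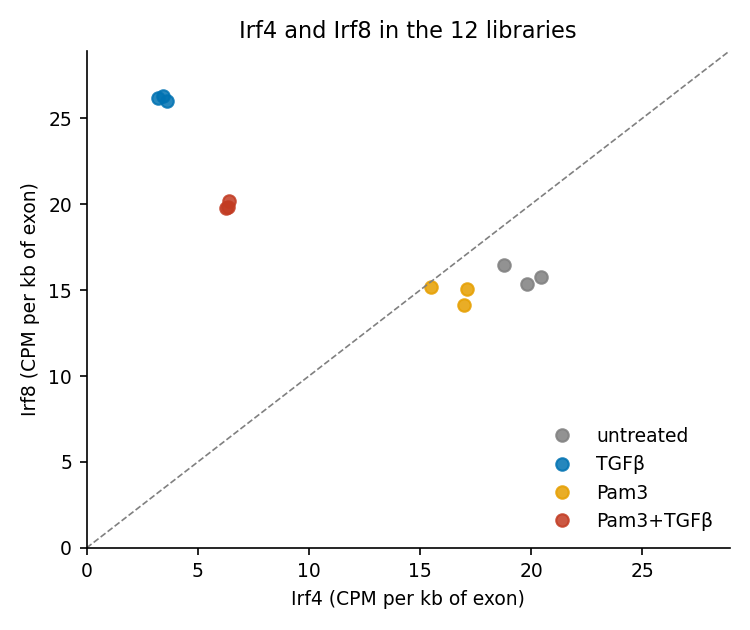
Irf8 against Irf4 in the 12 libraries, both in CPM per kb of the canonical transcript, with the dashed line marking equal levels. The 6 libraries with TGFβ lie above the line and the 6 without it lie below it.

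Most members answered Pam3 differently with TGFβ than without it, as the counts of calls show beside those over all 14749 tested genes. Without TGFβ, Pam3 was called for 3 of the 7 members, against 18.3% of tested genes. Irf1 and Irf7 were higher (9.62% of tested genes were called higher) and Irf4 lower (8.66% lower). With TGFβ it was called for 6 of the 7, against 38.5%, with Irf1, Irf2, Irf4, Irf5 and Irf7 higher (20.4%) and Irf8 lower (18.1%). The interaction was called for 6 of the 7, against 15.9%, positive for Irf1, Irf2, Irf4, Irf5 and Irf7 (10.3%) and negative for Irf8 (5.67%). With upper-quartile scaling the all-gene shares were 16.8% higher and 23.7% lower for Pam3 with TGFβ, and 8.51% positive and 7.44% negative for the interaction. The median interaction was 0.60 over the 7 members and 0.005 over all tested genes, and the median response to Pam3 with TGFβ was 0.68 over the members and -0.019 over all.

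TGFβ alone was called for 5 of the 7 members, against 51% of tested genes, so that count lies near the background there. Irf8 was higher (22.9%), and Irf1, Irf2, Irf4 and Irf5 were lower (28.1%). TGFβ in the presence of Pam3 was called for 6 of the 7, against 45.3%, with Irf4 lower (23.8%) and Irf1, Irf2, Irf5, Irf7 and Irf8 higher (21.5%). Pam3+TGFβ against untreated was called for 6 of the 7, against 52.1%, higher for Irf1, Irf2, Irf5, Irf7 and Irf8 (25%) and lower for Irf4 (27.2%). Pam3 alone against TGFβ alone was called for 7 of 7, against 54%, with 5 higher (29.6%) and Irf3 and Irf8 lower (24.5%). In the 7 libraries low in the 3 rows it was called for 5 of the 7, against 32.2% of tested genes in that fit, since Irf5 (0.20, adjusted p = 0.126) and Irf3 lost their calls. These comparisons share libraries, so their counts are not independent. The libraries of the groups compared did not overlap for 5 of the 7 members for Pam3 alone (31.4% of tested genes), 7 of 7 for Pam3 with TGFβ (50.4%), 5 of 7 for TGFβ alone (56.4%) and 6 of 7 for TGFβ with Pam3 (55.1%). They did not overlap for 6 of 7 for Pam3+TGFβ against untreated (56.8%) and 7 of 7 for Pam3 alone against TGFβ alone (61.6%).

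**Figure D3:**
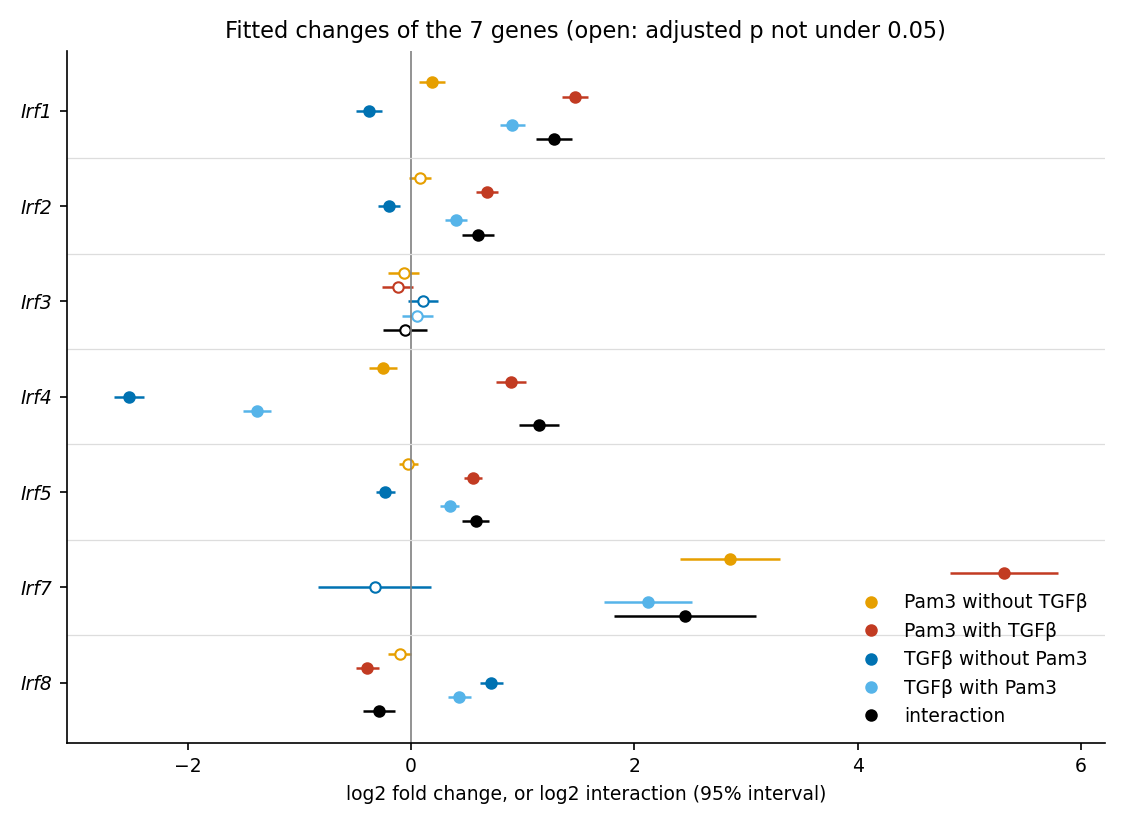
Log2 fold changes of the 7 genes in the 4 single-agent comparisons, and their log2 interaction, with 95% intervals from the edgeR fit of 12 libraries (open circles: adjusted p not under 0.05). The interaction is above 0 for Irf1, Irf2, Irf4, Irf5 and Irf7, below 0 for Irf8, and its interval spans 0 for Irf3.

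**Figure D4:**
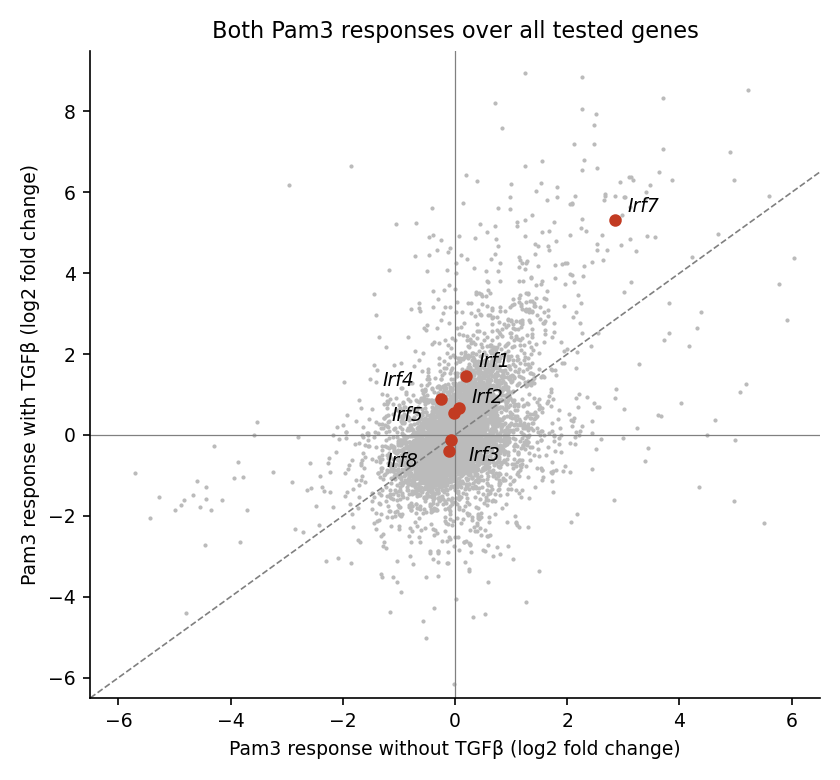
Log2 response to Pam3 with TGFβ (vertical) against that without TGFβ (horizontal) for the 14749 tested genes in grey and the 7 members in red, with the dashed line marking equal responses. Irf7 lies at 2.86 and 5.31, and Irf3 lies near the origin and the line.

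Levels of different members were compared as CPM per kb of canonical transcript. In untreated cells the order from high to low was Irf5 (125 CPM per kb), Irf2 (41.0), Irf1 (25.4), Irf3 (21.9), Irf4 (19.7), Irf8 (15.9) and Irf7 (2.88). In Pam3+TGFβ cells it was Irf5 (157), Irf7 (91.8), Irf2 (57.1), Irf1 (54.1), Irf3 (21.7), Irf8 (20.0) and Irf4 (6.35). Irf7 was the lowest of the 7 in untreated cells and next to Irf5 with both agents, where Irf4 was the lowest. The summed level of the 7 genes was 252 ± 8.37 CPM per kb (SD, n = 3) in untreated, 217 ± 1.67 in TGFβ, 269 ± 4.24 in Pam3 and 408 ± 6.61 in Pam3+TGFβ cells. Of that sum, Irf7 made up 1.14 ± 0.310%, 1.06 ± 0.226%, 7.83 ± 0.850% and 22.5 ± 0.301% in the same order of groups. Irf5 had the largest share in each group, 49.7 ± 0.781%, 49.1 ± 0.202%, 45.9 ± 0.424% and 38.4 ± 0.332%. The ranks depend on the length used. With all annotated exons of each gene, Irf4 (19.1 CPM per kb) followed Irf5 (38.3) in untreated cells and Irf2 was at 9.20, below Irf3 and Irf1. By that length, Irf7 made up 33.6% and Irf5 27.6% in Pam3+TGFβ cells. Irf8 held its largest share with TGFβ alone, 12.03 ± 0.0279%, against 6.30 ± 0.107% in untreated cells.

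**Figure D5:**
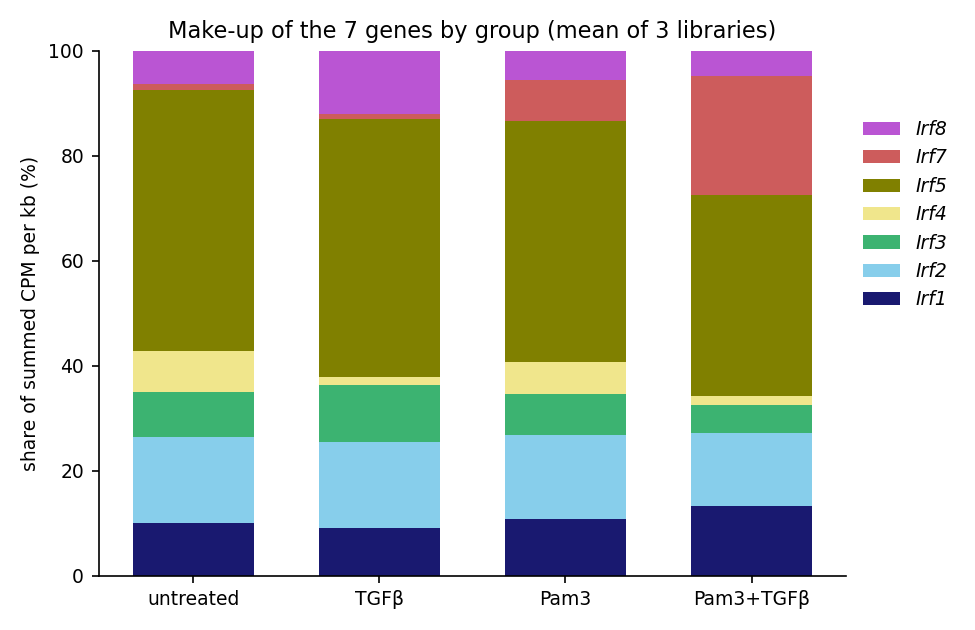
Share of each gene in the summed level of the 7 genes (percent of CPM per kb of canonical transcript, mean of 3 libraries) in the 4 groups. The Irf7 band is 1.14% in untreated and 22.5% in Pam3+TGFβ cells, and the Irf5 band 49.7% and 38.4%.

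The receptors, adaptors, sensors and kinases that lead to IRF activation were measured beside the members (30 symbols listed, 29 tested). Of the listed symbols, Rigi and Ddx58 name the same gene. Pam3 was called higher for 14 and lower for 5 of the 29 without TGFβ (9.62% and 8.66% of all tested genes), and higher for 16 and lower for 6 with TGFβ (20.4% and 18.1%). The 5 lower without TGFβ, named after their values were seen, were Sting1 (log2 change -0.39), Optn (-0.31), Irak1 (-0.21), Ikbkb (-0.16) and Mavs (-0.14). The interaction was called positive for 15, negative for 1 and not called for 13 (10.3% positive and 5.67% negative over all tested genes), with a median of 0.30 against 0.005 over all tested genes. The negative one, also named after its value was seen, was the endosomal receptor gene Tlr8 (-0.34). In the 7 libraries low in the 3 rows, 9 of the 29 had a called interaction, where 5.4% of all tested genes did, and 11 were called for Pam3 alone, where 8.24% did. TGFβ alone was called higher for 6 and lower for 14 of the 29, beside 22.9% and 28.1% of all tested genes. Ddx58 (the RNA sensor RIG-I) rose from 38.6 ± 2.97 CPM in TGFβ to 344 ± 2.87 in Pam3+TGFβ cells, and from 44.1 ± 3.36 untreated to 127 ± 10.9 with Pam3, an interaction of 1.63 ± 0.091 (SE, adjusted p = 4.28e-12). For the related sensor Ifih1 (MDA5) the interaction was 1.51 ± 0.112 (SE, adjusted p = 4.34e-10). Tlr2, the receptor of Pam3CSK4, had 454 ± 28.2 CPM untreated, 324 ± 14.3 with TGFβ, 594 ± 21.5 with Pam3 and 1042 ± 33.0 with both, an interaction of 1.30 ± 0.076 (SE, adjusted p = 3.67e-12). Ikbke, which encodes the kinase IKKε that acts on Irf3 and Irf7, had 172 ± 9.31 CPM untreated, 100.0 ± 4.35 with TGFβ, 231 ± 4.03 with Pam3 and 231 ± 3.97 with both. Its interaction of 0.79 ± 0.066 (SE, adjusted p = 1.54e-09) went with a lower starting level in TGFβ cells and about the same level after Pam3 in both.

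Of the 22 factors that bind DNA with IRFs or bind IRF proteins, Pam3 was called higher for 7 and not called for 15 without TGFβ (9.62% of all tested genes were higher), and higher for 14 (20.4%) and lower for 2 (18.1%) with TGFβ. The lower genes, named after their values were seen, were Irf2bpl and Tcf3. The interaction was positive for 11 and not called for 11 (10.3% of all tested genes were positive), with a median of 0.25. TGFβ alone was called higher for 7, lower for 6 and not called for 9 of the 22 (22.9% higher and 28.1% lower over all tested genes), with a median of 0.01. Without untreated replicate 2, 11 of the 22 and 18% of all tested genes were called for Pam3 alone. Stat2, a subunit of the interferon-stimulated complex ISGF3, had 80.3 ± 1.43 CPM untreated, 94.9 ± 6.18 with TGFβ, 162 ± 7.08 with Pam3 and 425 ± 3.79 with both, an interaction of 1.15 ± 0.068 (SE, adjusted p = 3.67e-12). Batf2, an AP-1 family partner of Irf1, was scarce, with 1.30 ± 0.123 CPM in untreated, 0.126 ± 0.0985 (1 to 8 counts a library) in TGFβ, 2.87 ± 0.972 in Pam3 and 2.66 ± 0.253 in Pam3+TGFβ cells. Its level was lower with TGFβ alone, and TGFβ in the presence of Pam3 was not called (-0.11, adjusted p = 0.798), while its interaction was 3.27 ± 0.529 (SE, adjusted p = 5.77e-05). When 1 library was left out, that interaction ran from 2.75 without TGFβ replicate 2 to 3.91 without TGFβ replicate 1. It was 5.03 in the 7 libraries low in the 3 rows, where TGFβ replicate 2 is the only TGFβ library. The NF-κB subunit gene Relb had 31.5 ± 5.68 CPM untreated, 14.5 ± 2.19 with TGFβ, 34.6 ± 1.08 with Pam3 and 52.9 ± 2.77 with both agents, an interaction of 1.73 ± 0.156 (SE, adjusted p = 1.23e-07). Junb, an AP-1 subunit gene, had 134 ± 13.7 CPM untreated, 46.3 ± 2.48 with TGFβ, 141 ± 12.0015 with Pam3 and 112 ± 2.58 with both, an interaction of 1.21 ± 0.096 (SE, adjusted p = 1.54e-09). TGFβ lowered Junb in the presence of Pam3 too (-0.33, adjusted p = 0.000269).

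Textbook IRF target genes had the largest medians of the 3 lists. Of 28 listed genes, 23 passed the filter, and Ifnb1, Ifna4, Ccl5, Il12a and Nos2 did not. Pam3 was called higher for 18 of the 23 without TGFβ (9.62% of all tested genes, median log2 change 1.42), with Casp1, Ciita, Il15, Ncf1 and Psmb9 not called, and higher for 20 (20.4%) and lower for 1 (18.1%) with TGFβ (median 4.48). The medians over all tested genes were 0 and -0.019. TGFβ alone was called lower for 13 (28.1% of all tested genes) and higher for 1 (22.9%), with a median of -0.64, and the interaction was positive for 18 (10.3%) and not called for 5 (median 2.11). The exceptions, named after their values were seen, were Il15, lower after Pam3 with TGFβ (-0.53), and the MHC class II regulator gene Ciita, higher with TGFβ alone (0.83). Cxcl10, a chemokine gene, had 2.39 ± 0.725 CPM untreated, 0.518 ± 0.432 with TGFβ, 11.6 ± 2.30 with Pam3 and 244 ± 26.0 with both, an interaction of 6.57 ± 0.526 (SE, adjusted p = 3.44e-05). Without TGFβ replicate 2 it was 7.52. The antiviral genes Mx1, Ifit1 and Ifit3 had 121 ± 2.48, 206 ± 16.5 and 165 ± 7.39 CPM in Pam3+TGFβ cells, against 58.0 ± 9.42, 40.0 ± 6.34 and 13.9 ± 3.71 with Pam3 alone. The interaction was 4.29 ± 0.394 (SE, adjusted p = 8.26e-05) for Mx1 and 3.37 ± 0.340 (SE, adjusted p = 9.91e-05) for Ifit1. It was 3.31 ± 0.512 (SE, adjusted p = 0.0024) for Ifit3. Untreated cells held 12.1, 3.08 and 1.82 CPM of Mx1, Ifit1 and Ifit3, and TGFβ cells 1.26, 1.52 and 2.14. TGFβ alone lowered Mx1 (-3.23) and Ifit1, and was not called for Ifit3 (0.25, adjusted p = 0.666). TGFβ in the presence of Pam3 gave 1.06, 2.37 and 3.56. The Mx1 interaction thus went more with a lower starting level than with a higher level after Pam3. In the 7 libraries low in the 3 rows the interaction was smaller, 5.601 for Cxcl10, 3.54 for Mx1, 2.68 for Ifit1 and 2.23 for Ifit3. There TGFβ replicate 2 is the only TGFβ library. Leaving out that library alone gave larger values for Mx1 (4.66), Ifit1 (3.59) and Ifit3 (3.65) too.

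The genes whose levels most resembled each member were found by Pearson's r of log2 CPM over the 12 libraries, among 10338 tested and named genes of sufficient level. These values describe the 4 group means and share their libraries, and they carry no test. Xaf1 (r = 0.997), Nfkb1 (0.996) and Irgm1 (0.996) were closest to Irf7. Xaf1 averaged 6.51, 6.27, 28.4 and 86.0 CPM in untreated, TGFβ, Pam3 and Pam3+TGFβ cells, and Irgm1, an interferon-inducible GTPase gene, 30.8, 24.9, 80.0 and 209. Irf1 and Irf2 were each other's closest gene (r = 0.991), followed for both by the MHC class I gene H2-T22 (0.988 and 0.989), and then by Ube2l6 for Irf1 and Trim14 for Irf2. Irf5 was closest to Pik3r6 (0.981), Apobec3 (0.972) and Irf1 (0.969). Irf4 was closest to Arhgef7 (0.996), Sdc3 and Lmo2. Lmo2, a transcriptional cofactor gene, averaged 64.9, 20.3, 62.3 and 33.3 CPM in the same order of groups. Irf8 was closest to Itgb5 (0.994), C5ar2 and Ldhb, and Itgb5, an integrin subunit gene, averaged 56.3, 322, 45.3 and 145 CPM. Irf3, which varied least, had lower values, 0.937 for Aarsd1, 0.882 for Hpcal1 and 0.875 for Ccdc166.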

How the data were processed

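Per the labels' protocols, the authors made stranded mRNA libraries, aligned reads to GRCm39 with Bowtie2 2.4.1 and counted them with featureCounts of Subread 2.0.0. The annotation, the strand setting and the handling of multiply aligned reads are not given in the sources used here. Bowtie2 does not split reads over introns, so reads across exon junctions can be lost. The deposited counts are whole reads per gene symbol. The authors also deposited a normalized signal, which is the count over 1 constant for each library, used here only in alternatives. Intervals cover the spread between libraries, and how far library totals limit precision was not tested.

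From the counts, genes were kept with filterByExpr (minimum count 10), scaled with TMM and tested on all 12 libraries with edgeR 4.0.16 (quasi-likelihood, robust, group means) under R 4.3.3, with Benjamini-Hochberg adjustment over 14749 genes. A gene was called at an adjusted p under 0.05. Unless another tool is named, adjusted p-values are from this fit. The interaction subtracts the Pam3 response of cells without TGFβ from that of cells with it. The procedure was also run on simulated counts, and the outcome of that run is not given here. No library was a repeat of another (chi-square over degrees of freedom between replicates 9.99 to 220). Not every pair of same-numbered libraries deviated together (correlations -0.174 to 0.3 over 18 pairs, 7 of them over 0.1), so replicate numbers were not taken as pairs.

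The members and gene lists were chosen with earlier results of these data known. The rule for names took all 7 members, up to 4 genes of each of 3 lists (upstream activators, partners and modulators, textbook targets) with the largest called interaction, and the 3 genes most like each member by r (log2 CPM with a prior count of 2). Alternatives were other scalings, DESeq2 1.42.0, limma 3.58.1 on the log2 of the normalized values plus 1, other filters, a replicate block, the 6 libraries compared and leaving out each library. The fit of the 7 libraries low in the 3 rows was added after the data were seen. Promoter sequences and lengths come from GRCm39 with GENCODE M39.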

Additional observations from a re-analysis of the deposited data

Results flagged for a closer look

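The Pam3 responses of cells with and without TGFβ differed in 6 of the 7 members, by the edgeR interaction test at an adjusted p under 0.05, beside 15.9% of the 14749 tested genes. For Irf8 the call was lost in the 7 libraries low in the 3 rows, where the log2 difference was about as large (-0.27). The log2 difference, with minus without, is given here. It was 2.45 for Irf7, 1.28 for Irf1, 1.15 for Irf4, 0.60 for Irf2, 0.58 for Irf5 and -0.29 for Irf8.

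The same difference among the named upstream genes was 1.63 for Ddx58, 1.51 for Ifih1, 1.30 for Tlr2 and 0.79 for Ikbke. Among the partners it was 3.27 for Batf2, 1.73 for Relb, 1.21 for Junb and 1.15 for Stat2. Among the target genes it was 6.57 for Cxcl10, 4.29 for Mx1, 3.37 for Ifit1 and 3.31 for Ifit3. These genes were named for the size of this difference.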

How the results depend on the processing

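No called result changed direction. Of the results on single genes, 727 of those recomputed without 1 library kept their side of the threshold, 1 gained a call and 4 lost it, and under the other alternatives 521 kept it, 1 gained and 6 lost it. Replicate numbers were not taken to pair the samples (7 of 18 same-numbered pairs correlated over 0.1, and 5 of 12 libraries correlated best with their own number). These correlations cannot exclude a pairing, since paired libraries need not deviate together. A replicate block changed no member's call and gave 1537 positive and 856 negative interaction calls, against 1516 and 836.

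Leaving out 1 library at a time gave 1 to 2 members called higher for Pam3 alone (6.91% to 10% of all tested genes), 1 to 2 higher for TGFβ alone (20.8% to 23.9%), 1 to 2 lower for Pam3 alone against TGFβ alone (21.5% to 25.1%), and 5 to 11 partner genes called for Pam3 alone (13% to 18% in either direction). With the 6 libraries compared, 1 member and 8.49% of genes were called higher for Pam3 alone (Irf7, while Irf1 had an adjusted p of 0.0511 in edgeR). With upper-quartile scaling, 2 members and 23.7% of genes were called lower for Pam3 with TGFβ, against 18.1% with TMM.

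In the 7 libraries low in the 3 rows, a set that leaves TGFβ and Pam3 with 1 library each, assumed to vary like the others, Pam3 alone was called higher for 1 member and 745 genes and lower for 0 members (Irf4, edgeR adjusted p = 0.247) and 471 genes, with 11 upstream genes called. Pam3 with TGFβ was called for 1924 genes higher and 1444 lower, TGFβ alone for 2222 higher, and the interaction for 612 positive and 184 negative genes, 0 members negative (Irf8, adjusted p = 0.228) and 9 upstream genes. Pam3 alone against TGFβ alone gave 2758 genes higher, 1986 lower, 4 members higher (Irf5, adjusted p = 0.126) and 1 member lower. This set has fewer samples.

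Levels relative to untreated were marked as moved where they shifted by more than the SD of the treated libraries over the untreated mean. The spread of the untreated libraries did not enter, and it was 30.8% of the mean for Irf7 and 10.4% for Irf3. With plain CPM the moved levels were 0.839 (Irf1), 0.946 (Irf2), 1.17 (Irf3), 0.189 (Irf4), 0.926 (Irf5) and 1.79 (Irf8) for TGFβ, 1 (Irf2), 0.908 (Irf3), 0.934 (Irf5) and 0.886 (Irf8) for Pam3, and 32.1 (Irf7) for both agents. With the deposited normalized values they were 0.86 (Irf5, TGFβ), 1.66 (Irf8, TGFβ), 32.3 (Irf7, both) and 1.27 (Irf8, both). Among the members, Irf7 had the fewest counts, 178 to 389 in libraries without Pam3.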
